A study of Mus musculus with 28 samples.

Results

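Described here are 37 genes of the interferon response and of class I antigen presentation. They were measured in sorted Lgr5-high and Lgr5-low cells labelled as mouse small intestine. The 37 genes were taken by gene symbol from a fixed list of names, out of 54354 genes in the table. That list was chosen with earlier results of these data known. All 37 were in the table, and 34 of them were among the 12495 genes that passed the filter on low counts and could be tested. The other 3, Nlrc5, Isg15 and Gbp2, were below that filter and are described by their counts alone. The members were ordered by role into regulators, sensors and antiviral effectors, the ISG15 system with a chemokine, interferon-inducible GTPases, class I antigen processing, and the class I molecules themselves.

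Mice were given control or cystine diet in a study whose title concerns dietary cysteine, stemness of the intestine and interleukin 22 made by CD8 T cells. Every mouse had the genotype Lgr5-GFP, a reporter in which green fluorescent protein follows Lgr5, the receptor that marks crypt stem cells. Poly(A) RNA was sequenced from Lgr5-high and Lgr5-low cells on each diet, which gave 4 groups of 7 libraries: Lgr5-high control, Lgr5-high cystine, Lgr5-low control and Lgr5-low cystine. The sources used here do not give the age or strain of the mice, the time on the diet or the sorting gates. The design text names small intestine as the source of the RNA, while the extraction protocol names organoids, and the sources do not settle which applies. Nor do the labels tie each library to an animal of its own, and p-values here cover only the spread between these libraries, which may be technical.

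Interferons are secreted proteins that signal through surface receptors, JAK kinases and STAT proteins. A complex that holds STAT2 and IRF9 binds the interferon-stimulated response element (ISRE), and the gamma-activated site (GAS) is the element of the interferon gamma response. Through these elements antiviral genes and the class I pathway are switched on. In that pathway the immunoproteasome cuts proteins into peptides, the TAP transporter carries them into the endoplasmic reticulum, and heavy chains such as H2-K and H2-D present them with beta-2 microglobulin to CD8 T cells. The gut epithelium keeps part of this program on, as a barrier to viruses.

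Libraries held between 2.75 and 21.5 M (mega) counts, and 7 libraries lay under 5 M: 1 Lgr5-high control, 3 Lgr5-high cystine, 2 Lgr5-low control and 1 Lgr5-low cystine library. Levels are given in CPM, a count relative to the library total after TMM scaling. The sorted populations matched their labels, since the crypt stem cell markers Lgr5, Ascl2, Olfm4 and Smoc2 summed to 2991 to 6996 CPM in the 14 Lgr5-high libraries and to 604 to 2351 CPM in the 14 Lgr5-low libraries. Sums of 12 macrophage markers had medians of 47.3 CPM in Lgr5-high control and 396 CPM in Lgr5-high cystine libraries, and 29.2 and 46.3 CPM in the Lgr5-low groups. Hepatocyte markers, which intestinal epithelium should hold at low levels, summed to 197 to 856 CPM over the 28 libraries. In such bulk samples, fewer cells of a type and less RNA per cell cannot be told apart.

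The DNA around the annotated starts of the members differed by role. A 300-base window around the annotated start (250 bases before, 50 after) was found for 30 of the 37 members in RefSeq (GRCm38.p6), 35 windows in all. The ISRE, searched on both strands as GAAA, any 2 bases and GAAA, was in 17 of these 35 windows (48.6%), against 3.44% of 32851 windows of all genes. The GAS, searched as TTC, any 3 bases and GAA, a pattern alike on both strands, was in 9 of 35 windows (25.7%), against 8.30% of all. By gene, the window held an ISRE for 6 of 6 GTPases with a window, 7 of 10 sensors and effectors, 2 of 2 of Isg15 and Cxcl10, 1 of 4 regulators (Stat2), 1 of 3 class I molecules (B2m) and 0 of 5 class I processing genes. In Ifih1 the only match begins at base 283 of the window, after the start of the gene. A match is a run of letters and no measured binding site, and an absent match says only that these letters are not in this window.

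The 250 bases before the RefSeq start of 5 members are shown because the results below turn on them or because they show both motifs. Psmb10 and Psmb9 have neither motif, B2m and Cxcl10 have an ISRE match, and Igtp has both motifs beside each other. Capitals mark ISRE and GAS matches, and each sequence reads 5′ to 3′ on the strand of its gene (GRCm38.p6).
Psmb10 (chr8:105938393-105938642, minus strand): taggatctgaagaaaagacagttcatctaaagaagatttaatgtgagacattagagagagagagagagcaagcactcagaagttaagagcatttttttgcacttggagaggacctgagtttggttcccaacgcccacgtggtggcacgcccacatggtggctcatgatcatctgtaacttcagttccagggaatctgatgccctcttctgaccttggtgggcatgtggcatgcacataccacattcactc
Psmb9 (chr17:34187331-34187580, minus strand): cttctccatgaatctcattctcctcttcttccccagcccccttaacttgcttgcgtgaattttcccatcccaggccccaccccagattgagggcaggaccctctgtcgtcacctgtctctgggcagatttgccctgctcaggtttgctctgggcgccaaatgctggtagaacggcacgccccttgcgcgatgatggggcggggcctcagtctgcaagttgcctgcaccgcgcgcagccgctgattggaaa
B2m (chr2:122147437-122147686, plus strand): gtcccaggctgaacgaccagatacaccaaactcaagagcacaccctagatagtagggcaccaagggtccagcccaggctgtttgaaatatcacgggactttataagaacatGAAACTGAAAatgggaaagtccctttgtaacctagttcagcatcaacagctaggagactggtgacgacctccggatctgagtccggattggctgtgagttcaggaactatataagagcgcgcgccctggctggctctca
Cxcl10 (chr5:92348890-92349139, minus strand): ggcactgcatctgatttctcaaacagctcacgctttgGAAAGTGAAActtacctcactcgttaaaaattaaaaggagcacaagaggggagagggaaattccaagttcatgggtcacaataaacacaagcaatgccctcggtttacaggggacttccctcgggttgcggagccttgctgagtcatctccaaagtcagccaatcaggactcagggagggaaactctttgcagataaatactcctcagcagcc
Igtp (chr11:58199306-58199555, plus strand): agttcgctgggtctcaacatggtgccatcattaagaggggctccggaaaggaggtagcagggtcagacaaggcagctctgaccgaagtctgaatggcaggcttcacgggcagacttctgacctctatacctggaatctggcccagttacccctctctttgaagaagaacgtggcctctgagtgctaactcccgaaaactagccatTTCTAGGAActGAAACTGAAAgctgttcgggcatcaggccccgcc
Psmb9 and Tap1 lie head to head, and their 300-base windows share 275 bases.

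In class I antigen processing, the immunoproteasome subunit Psmb10 was lower in Lgr5-high than in Lgr5-low cells on cystine diet. It was the 1 member that passed the main test, a fit without a replicate block, in any comparison. Psmb10, Psmb9 and Psmb8 encode the catalytic subunits that replace the constitutive ones in the immunoproteasome. Psmb10 (GRCm38, 8:105935735-105938444) ranged from 47.8 to 85.3 CPM (median 70.4) in Lgr5-high cystine libraries and from 87.2 to 138 CPM (median 90.2) in Lgr5-low cystine libraries. These groups did not overlap: all 7 Lgr5-high libraries lay below all 7 Lgr5-low libraries. The log2 fold change was -0.59 ± 0.16 (SE), with an adjusted p of 0.0415 in the quasi-likelihood test of edgeR. Of all genes tested, 2.641% passed in this comparison, 1.537% as lower, against 1 of 34 members.

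On control diet Psmb10 ranged from 69.6 to 98.5 CPM (median 77.2) in Lgr5-high and from 92.6 to 164 CPM (median 109) in Lgr5-low libraries. Of the 7 Lgr5-high libraries, 6 lay below every Lgr5-low library, and the ranges overlapped by the highest Lgr5-high library alone. The log2 fold change of Psmb10 on control diet was -0.55 ± 0.16, which missed the threshold (edgeR, adjusted p = 0.0736). On the same diet Psmb9 ranged from 29.4 to 48.8 CPM (median 39.9) in Lgr5-high and from 50.6 to 74.9 CPM (median 58.7) in Lgr5-low libraries. Psmb9 was the 1 member without overlap between these groups, where 0.9604% of all genes had none, and its log2 fold change was -0.67 ± 0.20 (edgeR, adjusted p = 0.0797). On cystine diet Psmb9 ranged from 15.5 to 62.3 CPM (median 39.0) in Lgr5-high and from 40.2 to 73.4 CPM (median 54.4) in Lgr5-low libraries. Here the groups overlapped, since 3 Lgr5-high libraries (replicates 4, 5 and 6) lay above the lowest Lgr5-low library, replicate 1, and the log2 fold change was -0.56 ± 0.20 (edgeR, adjusted p = 0.134).

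Psmb8 (17:34197721-34201454) had log2 fold changes of -0.77 ± 0.28 on control and -0.59 ± 0.28 on cystine diet (edgeR, adjusted p = 0.177 and 0.301). It ranged from 28.9 to 78.9 CPM (median 52.3) in Lgr5-high control, 25.2 to 63.8 CPM (median 51.0) in Lgr5-high cystine, 55.1 to 121 CPM (median 92.8) in Lgr5-low control and 12.6 to 141 CPM (median 71.7) in Lgr5-low cystine libraries. Both ends of the last range come from single libraries, replicates 1 and 7. Without replicate 1 the estimate of Psmb8 on cystine diet was -0.80 and passed (edgeR, adjusted p = 0.0461), and without replicate 7 it was -0.36. The peptide transporter subunits Tap1 and Tap2 and the loading factor Tapbp (tapasin) had negative estimates too, from -0.48 to -1.15 on control and from -0.16 to -0.88 on cystine diet. None of these passed. Together the 6 processing genes had a median log2 fold change of -0.64 on control and -0.58 on cystine diet, all 6 estimates being negative on each diet. Over all genes the medians were -0.01 and -0.04, with 49.4% and 47.2% of estimates positive. The ends of Tap1 and Psmb9 overlap on opposite strands, and the sources used here do not say whether the counting used the strand.

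**Figure D1:**
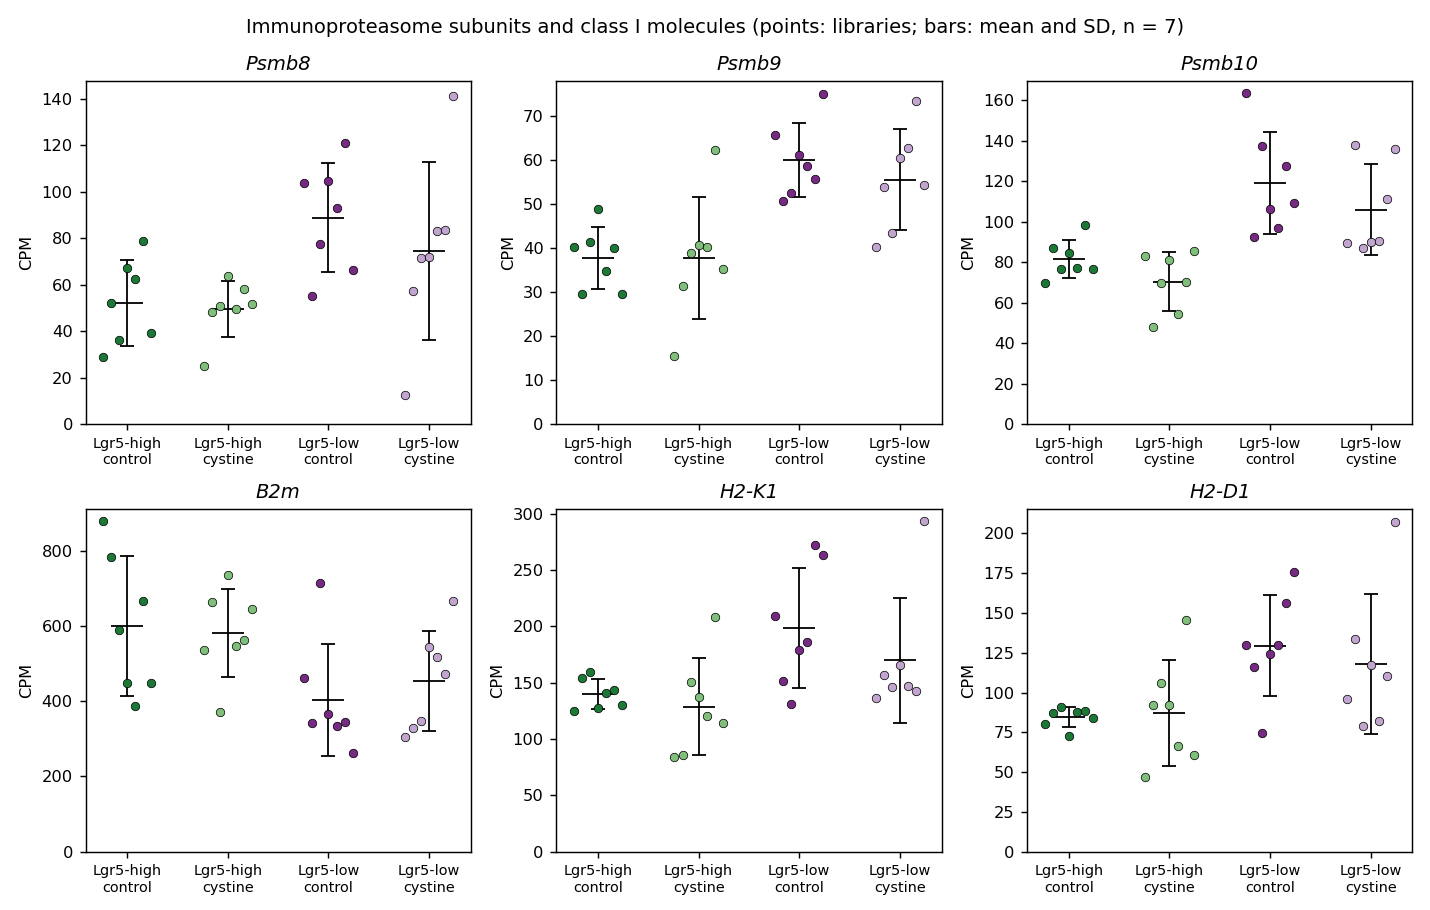
Levels of 6 class I pathway genes in 28 libraries, by group (CPM, linear axis from 0; points are libraries in replicate order, bars are mean and SD, n = 7). Psmb10 in Lgr5-high cystine libraries (47.8 to 85.3 CPM) lies below all Lgr5-low cystine libraries (87.2 to 138 CPM), and B2m has its higher means in the Lgr5-high groups.

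The call of Psmb10 on cystine diet stood on a narrow margin. It was kept in 7 of 14 fits that each left out 1 library of the compared groups (adjusted p from 0.0280 to 0.127, log2 fold change from -0.67 to -0.52), and lost without Lgr5-high cystine replicate 2, 3, 5 or 6 or Lgr5-low cystine replicate 2, 6 or 7. It was also lost with RLE size factors (adjusted p = 0.0693), without the low-count filter (0.0857), with the compared groups alone (0.0730) and without libraries under 5 M counts (0.159). Markers of cell composition moved with the same comparison. On cystine diet 3 of 7 epithelial markers (Krt8, Krt19 and Vil1) were lower in Lgr5-high cells, and the summed epithelial markers ranged from 866 to 1692 CPM in Lgr5-high and from 1623 to 2182 CPM in Lgr5-low libraries. The stem cell markers passed as higher for 3 of 4, and 10 of 11 tested macrophage markers passed as higher. Stromal and endothelial markers, 7 in the list, summed to 95.4 to 132 CPM in Lgr5-high and to 135 to 315 CPM in Lgr5-low cystine libraries, without overlap. Only Pecam1 of these 7 passed the low-count filter, so sums over the list, on either diet, do not show that the other markers differed. Pecam1 was lower in Lgr5-high cells (-0.85 ± 0.18, edgeR, adjusted p = 0.00618). On control diet 2 of 7 epithelial markers passed as lower, 4 of 4 stem cell markers as higher and Pecam1 as lower (-1.06 ± 0.18, edgeR, adjusted p = 0.00105). There the stromal and endothelial sums were 63.6 to 125 CPM in Lgr5-high and 134 to 266 CPM in Lgr5-low libraries, again without overlap. Of the macrophage markers 0 of 11 passed on control diet (edgeR; 0 at an unadjusted p under 0.05, 0 with DESeq2 and 0 with limma-voom). The part of these cell types in the Psmb10 result was not tested.

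The class I molecules did not share a direction. B2m, the light chain common to all class I molecules, had positive estimates in Lgr5-high against Lgr5-low cells, while the heavy chains H2-K1 and H2-D1 had negative ones. B2m (2:122147686-122153083) ranged from 387 to 880 CPM (median 590) in Lgr5-high control and from 261 to 715 CPM (median 346) in Lgr5-low control libraries. The ranges overlapped widely, with 2 Lgr5-high libraries above all Lgr5-low ones, and the log2 fold change was 0.57 ± 0.21 (edgeR, adjusted p = 0.175). On cystine diet B2m ranged from 372 to 735 CPM (median 563) in Lgr5-high and from 305 to 666 CPM (median 472) in Lgr5-low libraries, with a log2 fold change of 0.35 ± 0.21 (edgeR, adjusted p = 0.448).

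H2-K1 (17:33996017-34000347) ranged from 125 to 159 CPM (median 141) in Lgr5-high control and from 131 to 272 CPM (median 186) in Lgr5-low control libraries (log2 fold change -0.50 ± 0.19, edgeR adjusted p = 0.207). On cystine diet the ranges of H2-K1 were 83.9 to 209 CPM (median 121) and 136 to 294 CPM (median 148), and the log2 fold change was -0.40 ± 0.19 (edgeR, adjusted p = 0.303). In each pair 3 or 4 Lgr5-high libraries lay below every Lgr5-low one. H2-D1 (17:35262730-35267499) lay within a narrow band of 72.6 to 91.0 CPM (median 87.0) in Lgr5-high control libraries, against 74.5 to 176 CPM (median 130) in Lgr5-low control libraries. Its log2 fold change was -0.62 ± 0.21 on control and -0.44 ± 0.21 on cystine diet (edgeR, adjusted p = 0.136 and 0.300). The highest and lowest library of H2-D1 differed 1.25-fold in Lgr5-high control, 3.12-fold in Lgr5-high cystine, 2.36-fold in Lgr5-low control and 2.63-fold in Lgr5-low cystine cells. Lgr5-low cystine replicate 7 was the highest of its group for both heavy chains, and without it the estimates on cystine diet were -0.22 for H2-K1 and -0.25 for H2-D1. Without Lgr5-high cystine replicate 6 they were -0.57 and -0.63. H2-K1 and H2-D1 resemble each other and other class I genes in sequence, so their values depend on how Salmon divided shared reads.

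In Lgr5-high against Lgr5-low cells on control diet, 0 of 34 members passed with edgeR, where 1.801% of all genes did. At an unadjusted p under 0.05 there were 7 members, B2m with a positive estimate and Psmb8, Psmb9, Psmb10, H2-K1, H2-D1 and Zbp1 with negative ones, where 12.86% of all genes lay under it. DESeq2 called Psmb9 and Psmb10 lower (3.281% of all genes called), and limma-voom called B2m higher and H2-D1, Ifit1 and Psmb9 lower (6.403% of all genes). An edgeR fit with a block for the replicate number called B2m higher and Psmb8 and Psmb9 lower (adjusted p = 0.0401, 0.0369 and 0.0305). The labels do not say whether same-numbered libraries share animals. The median over the tested members was -0.37, with 26 of 34 estimates negative. On cystine diet the median was -0.33, with 22 of 34 negative, and 10 members lay under an unadjusted p of 0.05, 3 positive and 7 negative, where 15.53% of all genes did. DESeq2 called Psmb10 lower and Cxcl10 higher (4.775% of all genes called), and limma-voom called Psmb9 and Psmb10 lower and Cxcl10 and Rsad2 higher (7.283%). With the replicate block edgeR called Psmb9 and Psmb10 lower (adjusted p = 0.0469 and 0.0470). Groups without overlap were found for 1 member, Psmb10, and for 1.297% of all genes.

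**Figure D2:**
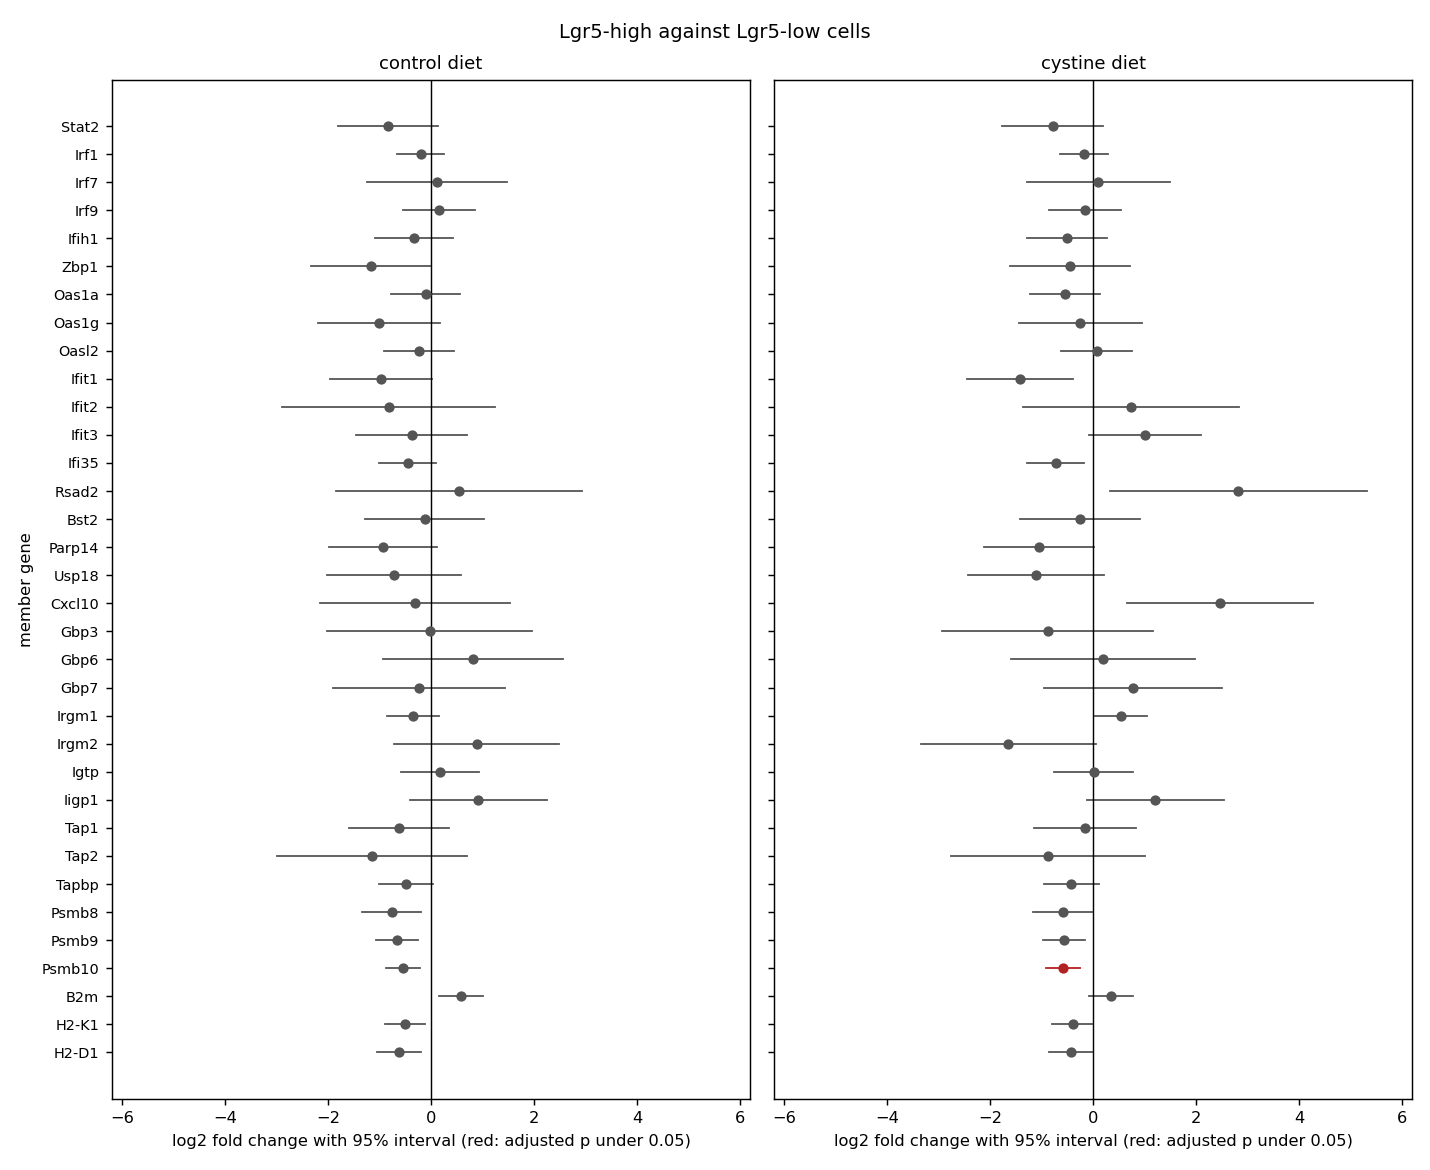
Log2 fold change of 34 members in Lgr5-high against Lgr5-low cells on each diet, with 95% intervals (points left of 0 are lower in Lgr5-high cells; red marks an adjusted p under 0.05). Psmb10 on cystine diet (-0.59) is the 1 red point, and the intervals are widest for members of low count such as Rsad2.

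Among sensors and antiviral effectors, 11 of 12 estimates were negative on control diet and 8 of 12 on cystine diet, and none passed with edgeR. Zbp1, a sensor of Z-form nucleic acid, had a log2 fold change of -1.17 ± 0.57 on control diet (adjusted p = 0.378). Ifit1, which binds viral RNA with foreign ends, had estimates of -0.97 ± 0.49 on control and -1.43 ± 0.51 on cystine diet (edgeR, adjusted p = 0.412 and 0.134). Its median was 6.66 CPM in Lgr5-high control, 5.09 in Lgr5-high cystine, 18.9 in Lgr5-low control and 6.32 in Lgr5-low cystine libraries. Lgr5-low cystine replicate 7 held 42.5 CPM of Ifit1, and without it the estimate on cystine diet was -0.78. Ifi35, an interferon-induced leucine zipper protein, ranged from 17.0 to 67.5 CPM (median 37.02) in Lgr5-high control, 9.58 to 44.3 CPM (median 32.8) in Lgr5-high cystine, 34.7 to 83.8 CPM (median 47.7) in Lgr5-low control and 31.7 to 83.6 CPM (median 44.7) in Lgr5-low cystine libraries. All 4 groups of Ifi35 overlapped, and its estimate on cystine diet was -0.73 ± 0.28 (edgeR, adjusted p = 0.156). Rsad2 (viperin, an antiviral enzyme) had the 1 positive estimate of this role on control diet, where its median was 0 CPM in Lgr5-low libraries. Its estimate was positive on cystine diet too, at 2.82 ± 1.23 (edgeR, adjusted p = 0.245), with 0 to 16 counts per library in the 14 libraries on that diet. Of the Lgr5-high cystine libraries, 5 were above every Lgr5-low cystine library, and Lgr5-high cystine replicate 1 held no count of it. The other 8 members of this role had estimates from -1.01 (Oas1g) to -0.11 (Oas1a) on control and from -1.05 (Parp14) to 1.0 (Ifit3) on cystine diet.

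No regulator passed the test between the populations. Irf1, a transcription factor that responds to interferon gamma, ranged from 15.2 to 65.5 CPM (median 50.5) in Lgr5-high control, 27.9 to 56.7 CPM (median 41.2) in Lgr5-high cystine, 31.5 to 76.0 CPM (median 62.4) in Lgr5-low control and 43.8 to 55.4 CPM (median 51.3) in Lgr5-low cystine libraries. The 4 groups overlapped, and its log2 fold changes between populations were -0.20 ± 0.23 on control and -0.18 ± 0.23 on cystine diet. Stat2, the STAT protein of the ISRE complex, had estimates of -0.83 ± 0.48 and -0.79 ± 0.49 (edgeR, adjusted p = 0.495 and 0.465). Nlrc5, the transactivator of class I genes, was at 0 counts in 16 of 28 libraries and reached 25 counts at most.

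The GTPases, which act on the membranes around intracellular pathogens, gave no shared direction: 4 of 7 estimates were positive on control and 5 of 7 on cystine diet. Irgm1 ranged from 31.6 to 49.8 CPM (median 35.5) in Lgr5-high control and from 21.4 to 89.5 CPM (median 46.6) in Lgr5-low control libraries, with an estimate of -0.35 ± 0.25 (edgeR, adjusted p = 0.612). On cystine diet Irgm1 ranged from 39.7 to 75.4 CPM (median 47.0) in Lgr5-high and from 10.6 to 51.4 CPM (median 36.0) in Lgr5-low libraries, and its estimate had the other sign, 0.55 ± 0.25 (edgeR, adjusted p = 0.273). The ranges of Irgm1 overlapped on both diets. Iigp1 had estimates of 0.92 ± 0.66 and 1.21 ± 0.66, and Irgm2 had 0.89 ± 0.79 on control and -1.65 ± 0.84 on cystine diet. Gbp3, Gbp6, Gbp7 and Igtp had estimates from -0.24 to 0.82 on control and from -0.89 to 0.77 on cystine diet, and no GTPase passed. The gene models of Irgm2 and Igtp overlap on chromosome 11, on the same strand, so reads of the shared stretch can be assigned to either. Gbp2 was at 0 counts in 10 libraries and reached 40 counts at most.

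In the ISG15 system, the ubiquitin-like modifier Isg15 itself was nearly unmeasured. It held 0 to 6 counts per library, was at 0 in 16 of 28 libraries and in all 7 Lgr5-high cystine libraries, where 3 counts over the group would be 0.0627 CPM without TMM scaling. Usp18, the protease that removes ISG15 and damps the interferon receptor, ranged from 0.655 to 4.82 CPM (median 3.84) in Lgr5-high control, 0.607 to 8.47 CPM (median 1.05) in Lgr5-high cystine, 1.48 to 12.1 CPM (median 3.19) in Lgr5-low control and 3.03 to 13.4 CPM (median 3.99) in Lgr5-low cystine libraries. Of the Lgr5-high cystine libraries of Usp18, 5 lay below every Lgr5-low cystine library and 2 among the others. The log2 fold changes of Usp18 between populations were -0.72 ± 0.64 on control and -1.11 ± 0.66 on cystine diet (edgeR, adjusted p = 0.716 and 0.441).

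The cystine diet was compared with the control diet in Lgr5-high cells, the population enriched for stem cells. These Lgr5-high cystine libraries also enter the comparison of populations above. The chemokine gene Cxcl10, which draws T cells that carry CXCR3, had the lowest p of the members and missed the threshold of the main test. Its values by library are given although they were chosen after being seen. Cxcl10 ranged from 0.0751 to 0.526 CPM (median 0.201) in Lgr5-high control and from 0.469 to 7.74 CPM (median 2.79) in Lgr5-high cystine libraries, from 1 to 7 and from 6 to 26 counts. Of the 7 cystine libraries, 6 lay above every control library, and replicate 1, at 0.469 CPM, lay below the highest control library. The log2 fold change was 3.81 ± 0.95 (edgeR, adjusted p = 0.10), with DESeq2 giving 3.91 ± 0.76 (adjusted p = 0.000161) and limma-voom 3.43 ± 0.66 (adjusted p = 0.00821). Leaving out 1 library at a time gave adjusted p from 0.0533 to 0.299 with edgeR. In Lgr5-low cells the medians of Cxcl10 were 0.214 CPM on control and 0.448 CPM on cystine diet, with an estimate of 1.04 ± 0.90 (edgeR, adjusted p = 1.0). Between populations on cystine diet, Cxcl10 had an estimate of 2.47 ± 0.89 (edgeR, adjusted p = 0.138), and 5 of the 7 Lgr5-high libraries were above every Lgr5-low one.

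Macrophage markers moved with Cxcl10. The 12 markers summed to 29.0 to 60.8 CPM in Lgr5-high control and to 23.8 to 683 CPM in Lgr5-high cystine libraries, and none of them was at 0 in all 7 libraries of either group. Of 11 tested, 8 passed as higher on cystine diet, with a median log2 fold change of 2.97. Replicate 1 had the lowest marker sum and the lowest Cxcl10 of the cystine libraries, and replicates 3 and 6 had the highest of each. The 12 T and NK cell markers summed to 6.33 to 78.5 CPM in Lgr5-high control and to 12.9 to 203 CPM in Lgr5-high cystine libraries. Estimates were positive for 6 of the 7 T and NK cell markers tested, with a median log2 fold change of 1.12. None was called by edgeR, with 0 at an unadjusted p under 0.05, 0 with DESeq2 and 0 with limma-voom. The part of these cells in the Cxcl10 values was not tested.

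**Figure D3:**
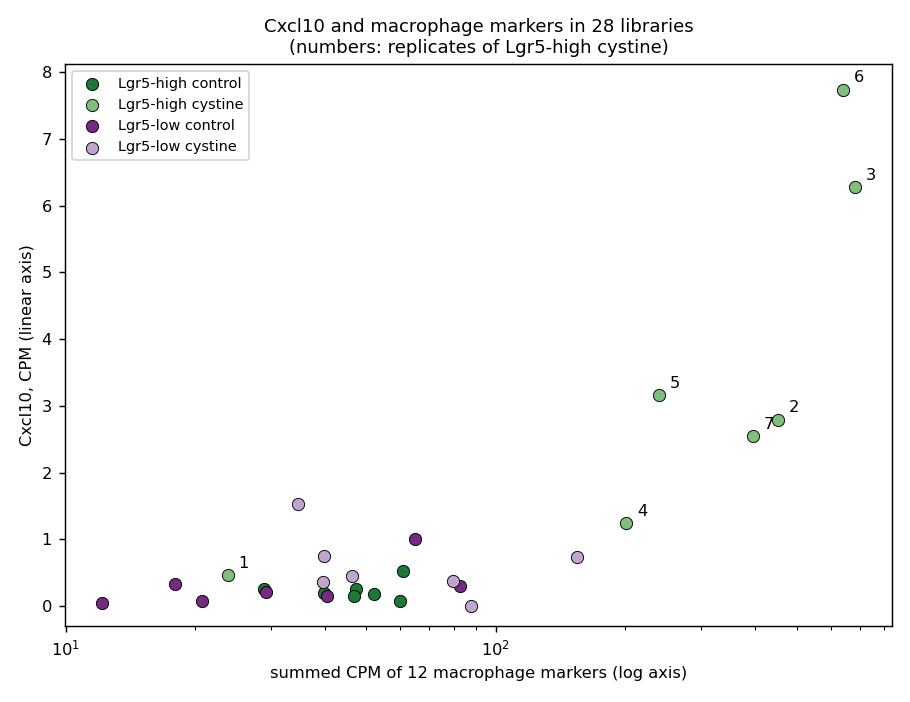
Cxcl10 (CPM, linear axis) against the summed CPM of 12 macrophage markers (log axis), with 1 point per library, coloured by group; numbers are replicates of Lgr5-high cystine. Replicates 2 to 7 of that group have 1.25 to 7.74 CPM of Cxcl10 and marker sums of 201 to 683 CPM, while replicate 1 (0.469 and 23.8 CPM) lies among the other groups.

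Apart from Cxcl10, no member was called for diet in Lgr5-high cells by any of the 3 tools. With edgeR 0 of 34 passed, where 0.1681% of all genes did, and 3 lay under an unadjusted p of 0.05 (Cxcl10, Irgm2 and Ifit1), where 4.282% of all genes did. DESeq2 and limma-voom each called 1 member, Cxcl10, with 0.7123% and 0.3121% of all genes called. No member had groups without overlap, against 0.2161% of all genes. The median over the tested members was -0.12, with 12 positive and 22 negative estimates, and the median of all genes was -0.02. Irgm2 ranged from 1.65 to 16.5 CPM (median 3.47) on control and from 0 to 2.61 CPM (median 0.850) on cystine diet. Of its cystine libraries 6 lay below every control library and replicate 3 among them, and the log2 fold change was -2.34 ± 0.85 (edgeR, adjusted p = 0.708). Without Lgr5-high control replicate 1, which held the 16.5 CPM, it was -1.66.

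For the class I molecules and the immunoproteasome the 95% intervals of the diet effect in Lgr5-high cells ended within 0.65 of 0. B2m had a log2 fold change of -0.05 (95% interval -0.48 to 0.38), H2-K1 -0.12 (-0.51 to 0.27) and H2-D1 0.04 (-0.39 to 0.47). In the immunoproteasome, Psmb9 had -0.00 (-0.41 to 0.40), Psmb10 -0.21 (-0.54 to 0.12) and Psmb8 -0.08 (-0.65 to 0.49). Changes up to these bounds remain compatible with the data. The peptide transporter had wider intervals, with Tap1 at -0.25 (-1.24 to 0.74) and Tap2 at -0.11 (-1.97 to 1.74). Tapbp, second in p among the processing genes, had an estimate of -0.24 ± 0.26. Of the other roles, Irf9 (the DNA-binding partner of STAT2) had -0.63 ± 0.35, Irf7 (the regulator of type I interferon genes) -0.71 ± 0.69, Ifit1 -1.05 ± 0.51, Ifit3 0.84 ± 0.54, Igtp -0.71 ± 0.38 and Usp18 0.10 ± 0.65, none of which passed. The estimate of Ifit1 turned to 0.23 in the female class alone and was -0.78 without Lgr5-high control replicate 1. The other sensors and effectors had estimates from -0.58 (Ifih1) to 1.75 (Rsad2), and the other GTPases from -1.05 (Gbp6) to 0.38 (Irgm1). Ifit3 has a near copy, Ifit3b, and Oas1a has Oas1g beside it, so their values too depend on how reads were divided.

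**Figure D4:**
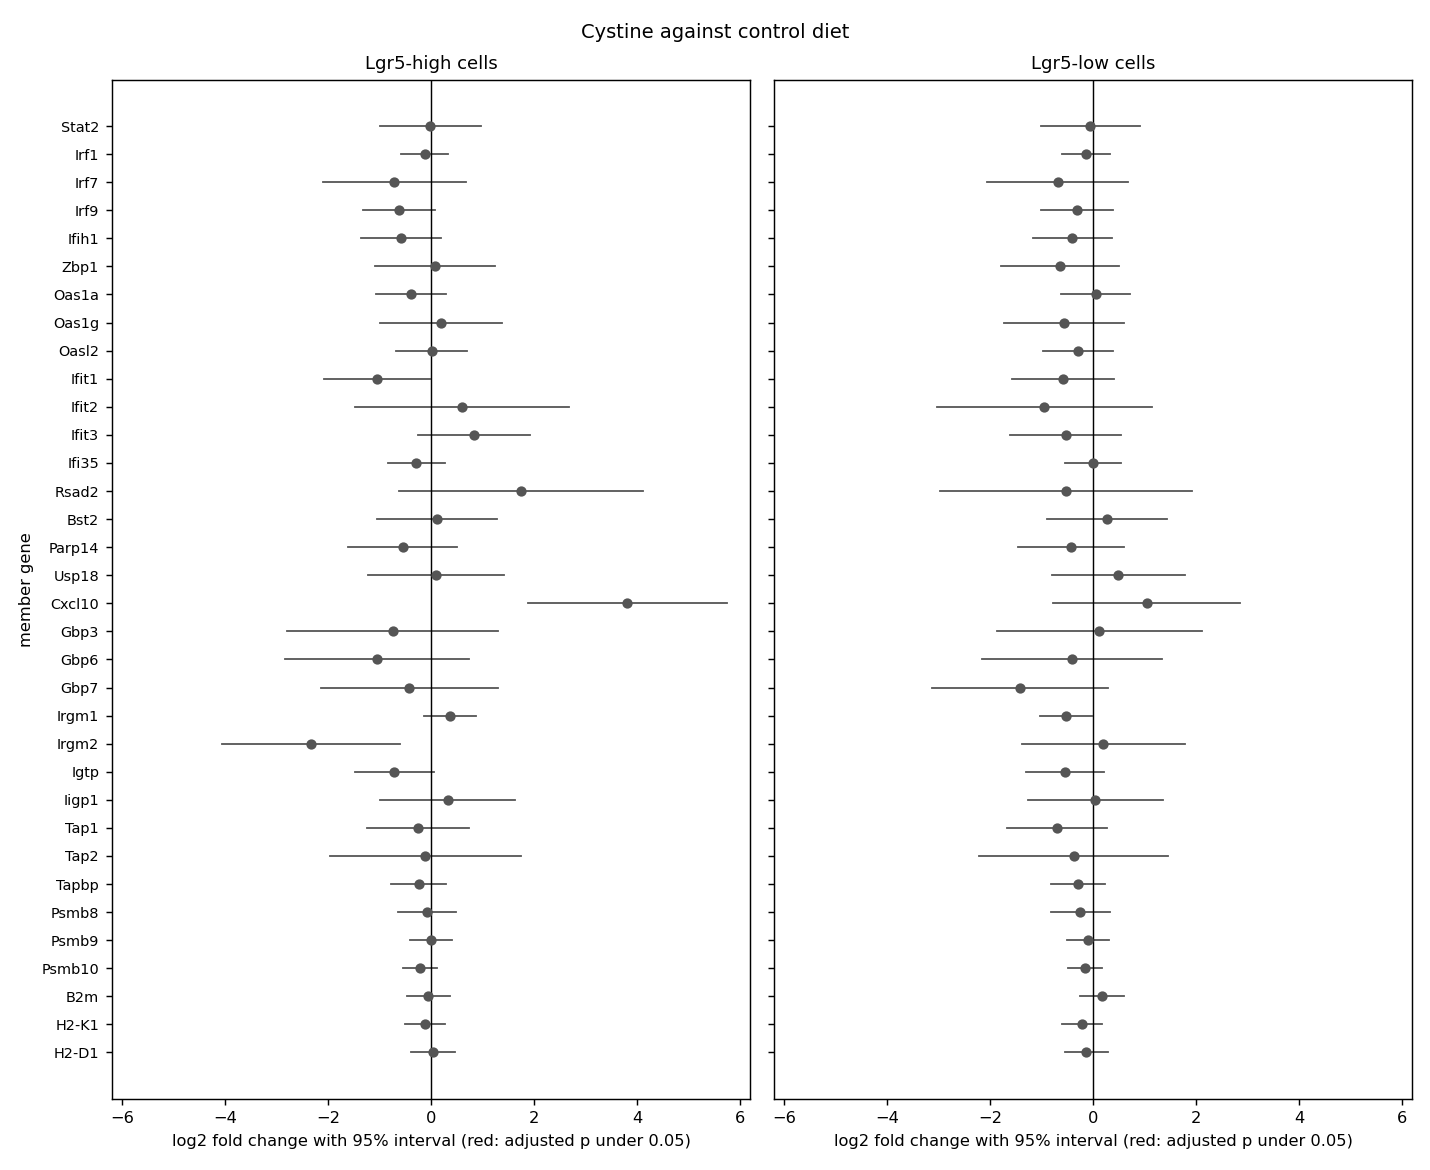
Log2 fold change of 34 members on cystine against control diet in each population, with 95% intervals (points right of 0 are higher on cystine diet; red would mark an adjusted p under 0.05). No point is red, Psmb9, Psmb10, B2m, H2-K1 and H2-D1 have narrow intervals around 0, and Cxcl10 in Lgr5-high cells (3.81, interval 1.88 to 5.74) lies farthest from 0.

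In Lgr5-low cells the diet gave 0 of 34 members past the threshold with edgeR, where 0% of all genes passed, and none with DESeq2 (0.03201% of all genes) or limma-voom (0.008003%). Under an unadjusted p of 0.05 there was 1 member, Irgm1 at -0.52 ± 0.25, where 2.969% of all genes lay under it, and no member had groups without overlap, against 0.06403% of all genes. The estimates of 26 of 34 members were negative, with a median of -0.29, where the median of all genes was -0.00. Lowest in p within their roles were Irf7 (-0.69 ± 0.68) and Irf9 (-0.31 ± 0.34), Ifit1 (-0.59 ± 0.49) and Zbp1 (-0.64 ± 0.56), Irgm1 and Gbp7 (-1.43 ± 0.85), Tap1 (-0.71 ± 0.48) and Tapbp (-0.29 ± 0.26), and H2-K1 (-0.23 ± 0.19) and B2m (0.17 ± 0.21). Usp18 had 0.49 ± 0.64, and the other sensors and effectors ranged from -0.95 (Ifit2) to 0.26 (Bst2). All adjusted p-values of these were 1.0 with edgeR.

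The difference between the diet effects in Lgr5-high and Lgr5-low cells, tested as an interaction, passed for 0 of 34 members with edgeR (0% of all genes), 0 with DESeq2 (0%) and 0 with limma-voom (0.04002% of all genes). Under an unadjusted p of 0.05 there were 3 members, Irgm1 (0.90 ± 0.35), Irgm2 (-2.54 ± 1.15) and Cxcl10 (2.78, 95% interval 0.19 to 5.37), where 3.321% of all genes lay under it. All 3 had an adjusted p of 1.0. So a diet effect on Cxcl10 was not shown to differ between the populations. Other members of lowest p in their roles were Ifit3 (1.38 ± 0.76) and Rsad2 (95% interval -1.14 to 5.71), Irf9 (-0.32 ± 0.49) and Stat2 (0.04 ± 0.68), Tap1 (0.46 ± 0.68) and Psmb8 (0.17 ± 0.40), and B2m (-0.22 ± 0.30) and H2-D1 (0.17 ± 0.30), with Usp18 at -0.39 ± 0.91. The median over the members was 0.05, and -0.03 over all genes.

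Single libraries set much of the spread among the members. In Lgr5-high cystine cells replicate 6, the shallowest library of all at 2.75 M counts, was the highest of its group for 22 of 34 members, where it was highest for 18.0% of all genes. Replicate 1 of the same group was the lowest for 15 of the 33 members with a single lowest library, against 15.5% of all genes. In Lgr5-low cystine cells replicate 7 was highest for 17 of 34 members (17.0% of all genes) and replicate 1 lowest for 16 of 34 (33.0% of all genes). The mean over the 34 members of log2 CPM, each centred on its own mean over 28 libraries, ran from -0.97 in Lgr5-high cystine replicate 1 to 0.80 in Lgr5-low cystine replicate 7, and was 0.77 in Lgr5-high cystine replicate 6. It ran from -0.29 to 0.34 within Lgr5-high control and from -0.30 to 0.60 within Lgr5-low control libraries, a smaller span than within either cystine group.

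**Figure D5:**
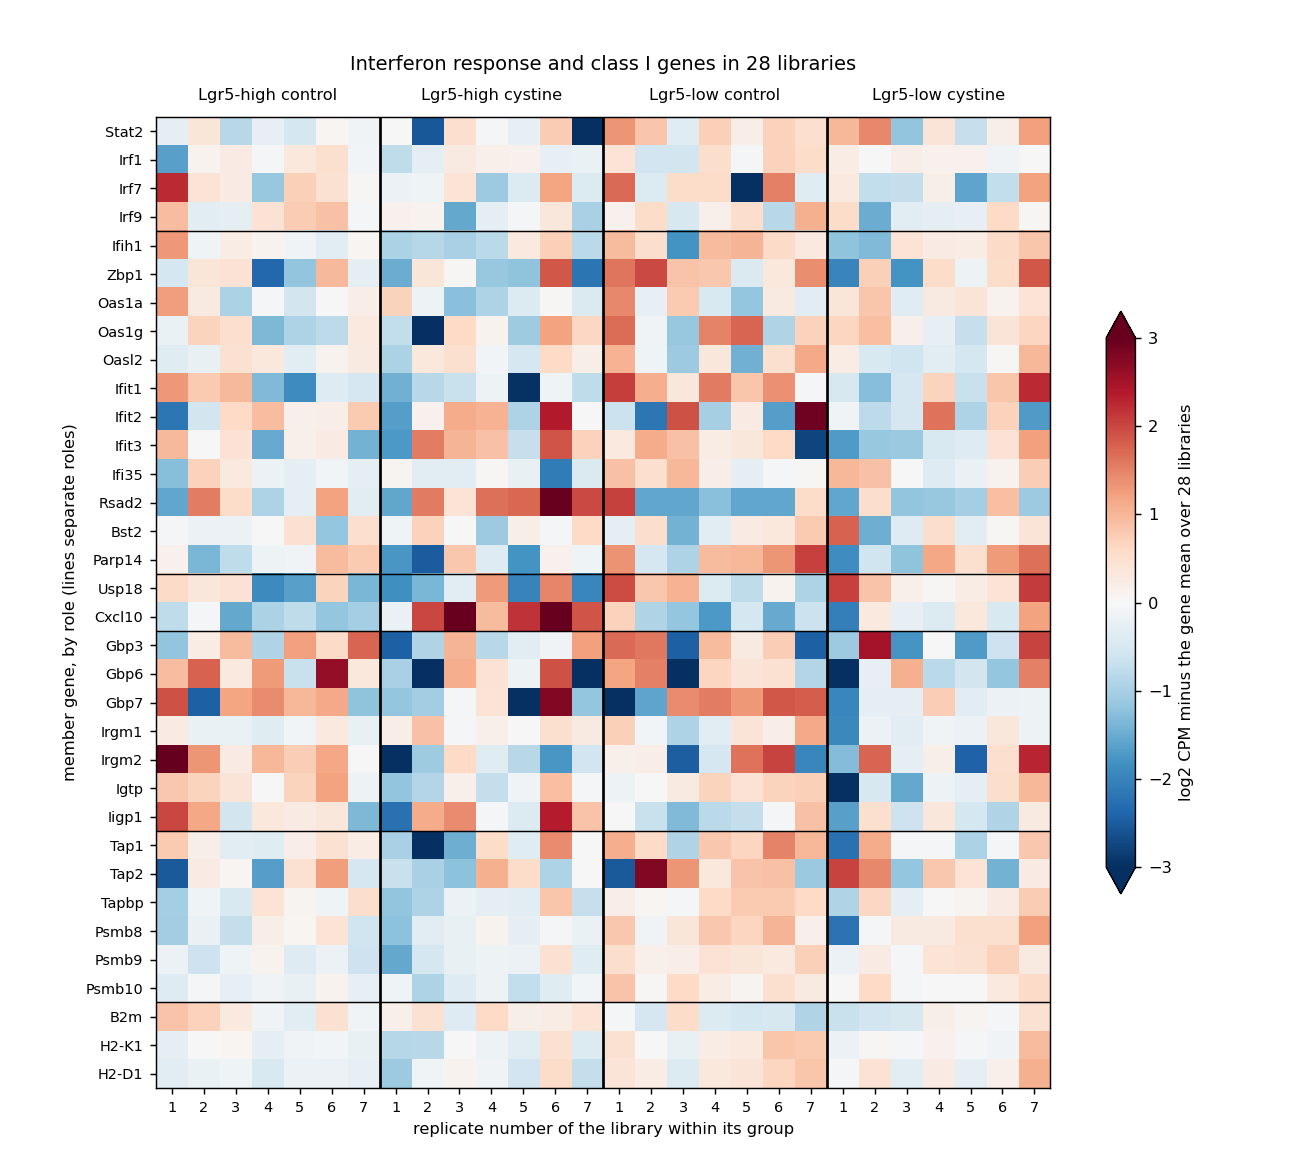
Log2 CPM of 34 members in 28 libraries, each gene centred on its mean (red above, blue below; the scale stops at -3 and 3), with genes ordered by role and libraries by group and replicate. Lgr5-high cystine replicate 1 is mostly blue (mean -0.97) and Lgr5-low cystine replicate 7 mostly red (mean 0.80).

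Other genes of the pathway were taken from 4 lists of 94 genes, of which 93 were in the table and 69 were tested. All 7 interferon ligands listed (Ifng, Ifnb1, Ifna4, Ifnl2, Ifnl3, Ifnk and Ifne) had 0 counts in all 28 libraries, where 3 counts would be 0.139 CPM in the deepest and 1.09 CPM in the shallowest library, without TMM scaling. In each of the 5 comparisons 0 of the 69 passed with edgeR, where 0% to 2.641% of all genes did. Under an unadjusted p of 0.05 were 2 for diet in Lgr5-high and 3 in Lgr5-low cells, against 4.282% and 2.969% of all genes. For the difference it was 1, against 3.321%. Between populations there were 8 on control and 11 on cystine diet, against 12.86% and 15.53%. DESeq2 called 0 between populations on control and 1 on cystine diet (3.281% and 4.775% of all genes). Limma-voom called 4 and 1 there (6.403% and 7.283%). In the other comparisons neither tool called any. On control diet the lowest p belonged to Canx (calnexin, which folds class I heavy chains; -0.56 ± 0.18, edgeR adjusted p = 0.106) and Il10rb (a receptor chain shared by interferon lambda and interleukin 22; -0.79 ± 0.27, adjusted p = 0.134). On cystine diet they were H2-T22 (-0.97 ± 0.35, edgeR adjusted p = 0.133) and the interferon-induced Ifi27l2a (1.90 ± 0.68, adjusted p = 0.135). For diet in Lgr5-high cells they were Ifi27l2a (1.66 ± 0.67) and Ddx60 (-1.29 ± 0.63). For diet in Lgr5-low cells they were H2-T10 (-2.76 ± 1.24) and the receptor chain Ifnar1 (-0.91 ± 0.43), and for the difference Ifit3b (3.34 ± 1.48) and Adar (-0.91 ± 0.49), all with adjusted p of 0.941 or above.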

How the data were processed

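The deposited table holds estimated counts for each gene, rounded to integers, which the authors made with Salmon 1.3.0 on mm10, per the submitters' processing notes. The sources used here do not give the transcript annotation or how transcripts were summed. All columns were assigned to samples by their labels. The 37 members, the role groups, the pathway lists and the markers were chosen with earlier results of these data known.

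Genes were tested with the robust quasi-likelihood test of edgeR 4.0.16 (R 4.3.3): TMM factors, filterByExpr, 1 mean per group over 28 libraries, two-sided, Benjamini-Hochberg adjustment over 12495 genes, threshold 0.05. Adjusted p-values are from this test unless another tool is named, and values after ± are standard errors. For edgeR each was taken as the absolute log2 fold change divided by the square root of the F statistic. This ratio is less stable for estimates near 0. The 95% intervals use it with the t distribution. The common biological coefficient of variation was 0.629. The limits given for a count of 0 cover counting error only, while the 95% intervals also include the estimated spread between libraries. The edgeR fit was tested on simulated counts, with less spread than the common coefficient and with changes only in genes above a minimum level. The simulation therefore does not cover members of low count. Within-group pairs of libraries, 84 in all, differed by more than sampling noise (chi-square per gene 13.9 to 226). Genes without a symbol held at most 0.0111% of a library and stayed in the fit.

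Named were every member past the threshold in a comparison and the 2 of lowest p in each role group; pathway genes likewise, with the 2 of lowest p per comparison. Library values are given for the member past the threshold and the members of highest level in each role. The alternatives were DESeq2 1.42.0, limma-voom (limma 3.58.1) with quality weights, RLE factors, 2 other filters (none, or 1 CPM in 7 libraries), only the compared groups, a replicate block, a sex term, each sex class (Xist over 50 CPM as female), no libraries under 5 M (mega) counts, and each library left out. Gene positions are from GENCODE M21 (GRCm38, also called mm10).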

Additional observations from a re-analysis of the deposited data

Results flagged for a closer look

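In 23 of 136 member and group combinations (16.9%), the highest or lowest library stood apart from the other 6. The gap in CPM was then larger than Dixon's 95% critical value, which chance exceeds in about 5% of normally distributed groups. The gap was above the others in 20 and below them in 3. CPM was used without a log scale and can be skewed upward, so the 16.9% cannot be set against this 5%. All values are CPM. Members share libraries, so these flags are not independent of each other.

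In Lgr5-high control cells, replicate 1 was apart for 5 members: Irf1 at 15.2 (below the others), Irf7 at 11.6, Ifih1 at 26.8, Oas1a at 46.6 and Irgm2 at 16.5. Replicate 2 was apart for Cxcl10 at 0.526, which sets the upper end of the control range against which the cystine libraries were read. In Lgr5-high cystine cells, replicate 6 was apart for Zbp1 at 31.3, Ifit2 at 4.05, Rsad2 at 5.90, Gbp7 at 12.2 and Tapbp at 64.5, and below the others for Ifi35 at 9.58. Replicate 1 was apart, below, for Psmb8 at 25.2.

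In Lgr5-low control cells the flags fell on replicate 1 for Rsad2 at 2.02 and Cxcl10 at 1.01, on replicate 2 for Tap2 at 6.86 and on replicate 7 for Iigp1 at 4.15. In Lgr5-low cystine cells, replicate 7 was apart for Zbp1 at 31.0, Oasl2 at 27.6, Ifit1 at 42.5, H2-K1 at 294 and H2-D1 at 207, and replicate 1 for Bst2 at 8.33. The cause of these values was not tested.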

How the results depend on the processing

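No called member changed sign. In each population the male class held 3 control and 2 cystine libraries, and the female class 4 and 5. The sex mix thus differed between the diets, and values in the male class rest on few libraries. Ifit1 for diet in Lgr5-high cells (-1.05) was 0.23 in the female class, and Psmb8 between populations on cystine diet (-0.59) was 0.0087 in the male class. For diet in Lgr5-high cells the count of members called was 0, and 1 with DESeq2 and 1 with limma-voom; the members' median log2 fold change of -0.12 was -0.71 in the male class alone and 0.01 in the female class. For the difference of diet effects the median of 0.05 was -0.46 in the male class and -0.16 without libraries under 5 M. Between populations on control diet the count was 0, and 2 with DESeq2, 4 with limma-voom, 3 with the sex term and 2 in the female class; leaving out 1 library gave 0 to 3, with 3 without Lgr5-low control replicate 3. On cystine diet the count of 1 was 2 with DESeq2, 4 with limma-voom, and 0 with RLE factors, no filter, only the compared groups, the male class, or without libraries under 5 M; leaving out 1 library gave 0 to 2, with 2 (Psmb8 and Psmb10) without Lgr5-low cystine replicate 1. Without Lgr5-high cystine replicate 6 the 1 called was Psmb9 and not Psmb10. In the female class Psmb8 was called there, and Psmb10 had -0.51 (adjusted p = 0.0716, edgeR). The cause of these shifts was not tested.

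With the replicate block the count was 3 on control diet (B2m, Psmb8, Psmb9), 2 on cystine diet (Psmb9, Psmb10) and 0 for the diet contrasts. The labels do not tie the numbers to animals, so the block was kept as an alternative. Over 14 pairs of same-numbered Lgr5-high and Lgr5-low libraries on a diet, deviations correlated at -0.08 to 0.24, and 5 pairs exceeded 0.1. Of these libraries 7 correlated best with their own number, where chance gives 2. The sex class agreed in 14 of these 14 pairs. Same-numbered libraries of a population on different diets, again 14 pairs, correlated at -0.09 to 0.12. Of these, 5 correlated best with their own number, where chance gives 2, and 12 agreed in sex class. Whether same-numbered libraries share animals is not given in the sources used here, and these correlations do not decide it. Depth limits Isg15, Nlrc5, Gbp2, Rsad2 and Cxcl10, which rest on few counts.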
